A study of Mus musculus with 3 samples.

Results

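The MYC, MAX and MXD network is a set of transcription factors that pair with each other and compete for the same DNA sequence. It was examined here through 9 genes of the 18287 listed: Myc, Max, Mxd1, Mxd3, Mxd4, Mxi1, Mnt, Mga and Mlx. They were taken by gene symbol from the deposited tables, and all 9 were found. The set was chosen by gene family, with the read counts and log2 differences of these same libraries already known, so all values of its members are a description.

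MYC binds DNA only as a pair with MAX and, as that pair, promotes the transcription of genes for growth, ribosome production and cell division. MXD1, MXI1 (also called MXD2), MXD3 and MXD4 pair with MAX in place of MYC and recruit SIN3 and histone deacetylases, which represses transcription from the same sites. MNT and MGA are larger repressive partners of MAX. MLX is the MAX-like partner of the glucose-sensing factors MondoA and ChREBP, and it can also pair with some MXD proteins and with MNT. In many cell types MYC is high in dividing cells and MXD1 and MXD4 are high in resting or differentiated cells, while MXD3 is known for its expression in S phase.

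Polyadenylated RNA came from mouse aorta endothelial cells obtained from a supplier, the cell type lining the vessel, with 1 library in each of 3 groups. The first group is labelled control. The second was exposed to glucose oxidase, whose reaction with glucose yields hydrogen peroxide (5 mU/mL, 30 min). The third received this exposure and also ethyl-2-hydroxybenzylamine (Et2HOBA), a scavenger of reactive lipid products, at 0.2 mM for 24 h. The order of these exposures is not stated, and none of the 3 groups received Et2HOBA alone. The libraries held 35005089 to 40212212 reads over the listed genes.

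With 1 library per group differences lack a replicate check, and conditions could not be tested against each other. Intervals are exact 95% intervals that cover counting error only. Levels are normalized read counts, that is, reads divided by a size factor for each library. Folds are ratios of these levels. Log2 ratios add 10 to each level first, which understates the change of low genes. Reads of the library with glucose oxidase alone were worked out from deposited log2 differences, as described under processing.

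The sequence recognised by MYC-MAX and MXD-MAX pairs, the E-box CACGTG, was looked for in the window from 250 bases before to 50 bases after each RefSeq gene start (GRCm38.p6). The motif reads the same on both strands. Of the 8 members with a window in the table, 4 held it: Max, Mlx, Mnt and Mxd4. Of 11414 listed genes with a window, 11.3% held it. Windows are printed below from 250 bases before the start up to the base before the start, or for Max up to 7 bases past it. They show where the E-box, in capitals, lies in genes of the network that were lower, higher or nearly level in the treated libraries.
Mxd4, chr5:34187711-34187960, - strand: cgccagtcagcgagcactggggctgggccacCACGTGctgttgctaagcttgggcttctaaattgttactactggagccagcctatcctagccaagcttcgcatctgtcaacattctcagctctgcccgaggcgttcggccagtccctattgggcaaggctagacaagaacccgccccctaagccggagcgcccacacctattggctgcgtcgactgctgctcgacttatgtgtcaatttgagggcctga
Mnt, chr11:74830674-74830923, + strand: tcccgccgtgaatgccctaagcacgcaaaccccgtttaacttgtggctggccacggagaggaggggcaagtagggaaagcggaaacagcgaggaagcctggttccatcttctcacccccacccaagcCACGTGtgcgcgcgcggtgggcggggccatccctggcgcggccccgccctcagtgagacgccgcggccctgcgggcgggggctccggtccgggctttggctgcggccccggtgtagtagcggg
Max, chr12:76962242-76962498, - strand: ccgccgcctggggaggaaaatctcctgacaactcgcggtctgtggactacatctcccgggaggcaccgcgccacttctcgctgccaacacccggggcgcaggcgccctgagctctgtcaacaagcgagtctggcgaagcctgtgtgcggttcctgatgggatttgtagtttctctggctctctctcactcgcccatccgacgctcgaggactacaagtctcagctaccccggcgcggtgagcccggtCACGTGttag
Mlx, chr11:101087040-101087289, + strand: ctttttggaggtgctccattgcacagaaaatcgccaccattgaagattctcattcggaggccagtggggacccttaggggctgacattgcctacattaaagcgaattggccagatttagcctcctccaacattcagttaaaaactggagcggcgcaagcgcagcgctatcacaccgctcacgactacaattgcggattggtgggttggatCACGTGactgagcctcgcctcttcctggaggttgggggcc

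Counted from the gene start, the E-box began at position -219 in Mxd4, at -123 in Mnt and at -40 in Mlx, and in Max it spanned the start itself, beginning at -3. Of these genes, Mxd4 and Max were lower in both treated libraries than in control, Mnt was higher, and Mlx differed by less than 0.2 log2 units. The windows of Mga, Mxd1 and Mxd3 held no CACGTG, nor did any of the 3 windows of Mxi1, a gene with several start sites that gene-level counts do not separate. A match is a description of these letters only.

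Myc (ENSMUSG00000022346.15, chromosome 15, 61985391 to 61990374), the activating member, counted 1230 reads in the control library, 1727 with glucose oxidase alone and 2406 with both agents. The normalized counts were 1192 (95% interval 1126 to 1260.4), 1789 (1706 to 1875) and 2317 (2225 to 2411), in the same order. The control library was the lowest and the library with both agents the highest, with no overlap of counting intervals. The level was 1.50-fold that of control after glucose oxidase (1.39 to 1.62) and 1.94-fold with Et2HOBA (1.81 to 2.08). Between the treated libraries it was 1.29-fold higher with Et2HOBA (1.22 to 1.38). On the log2 scale the value against control with Et2HOBA was 0.95, just under a limit of 1 log2 unit, and 7.19% of all listed genes were as high or higher. In bulk RNA, more cells that express a gene and more RNA per cell cannot be told apart.

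Max (ENSMUSG00000059436.13, chromosome 12, 76937269 to 76962201), the shared partner, had normalized counts of 2567 (2470.1 to 2667), 2212 (2119 to 2307) and 2047 (1961 to 2136) in the same order. The control library was the highest, and the intervals of the treated libraries overlapped slightly. The level was 0.862 of control after glucose oxidase (0.813 to 0.912) and 0.797 with Et2HOBA (0.753 to 0.845). Thus Myc and its partner differed from control in opposite directions, and the difference of Max was small: 28.8% of all listed genes had as low a log2 ratio with Et2HOBA.

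**Figure D1:**
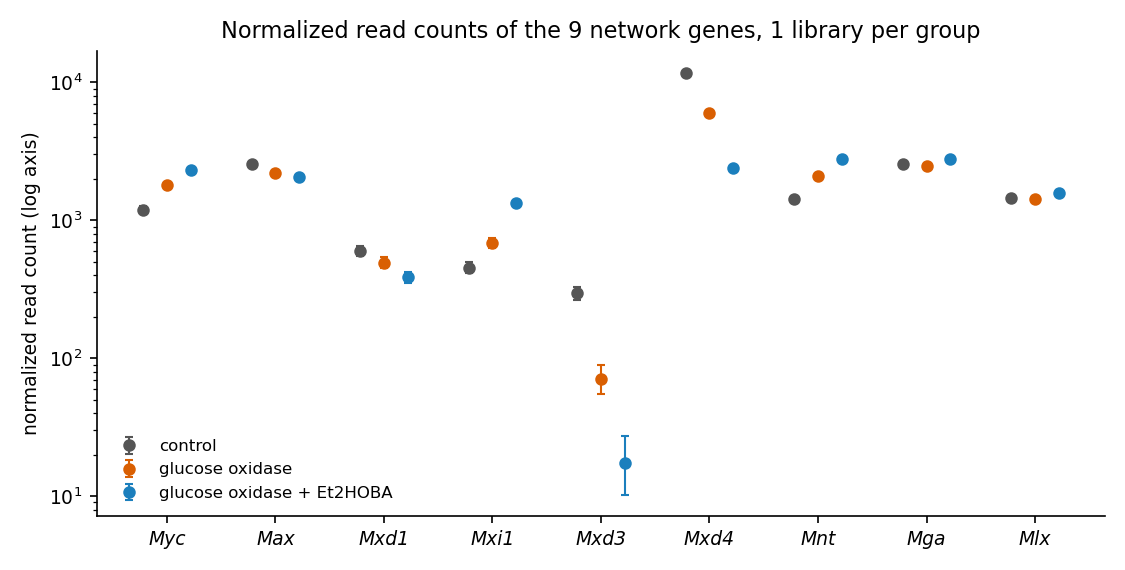
Normalized read counts (log axis) of the 9 genes in the 3 libraries, 1 point per library, with exact 95% counting intervals as bars. Myc, Mxi1 and Mnt step upward from control to the library with both agents, Mxd3 and Mxd4 step downward, and Mga and Mlx stay nearly level.

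Mxd4 (ENSMUSG00000037235.13, chromosome 5, 34173883 to 34187720), a repressive partner of MAX, was by read number the most abundant member in control. Its reads numbered 12076, 5806 and 2482, or normalized counts of 11702 (11494 to 11912), 6014 (5861 to 6171) and 2389.7 (2297 to 2486). Each library stood clear of the other two. The level after glucose oxidase was 0.514 of control (0.498 to 0.530), and with Et2HOBA it was 0.204 of control (0.196 to 0.213). Compared between the treated libraries, the level with both agents was 0.397 of that with glucose oxidase alone (0.379 to 0.417), a log2 ratio of -1.33. Only 0.591% of all listed genes were as low in that comparison. In the authors' deposited tables, each on its own scale, Mxd4 had -0.93 for glucose oxidase alone and -2.26 for both agents.

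Mxd3 (ENSMUSG00000021485.14, chromosome 13, 55325168 to 55329823), the MXD gene known for expression in S phase, had the largest fold against control of the 9 genes in both treated libraries. It had 305, 68 and 18 reads, or normalized counts of 296 (263 to 331), 70.4 (54.7 to 89.3) and 17.3 (10.3 to 27.4). The 3 intervals did not overlap. After glucose oxidase the level was 4.20-fold lower than in control (3.22 to 5.54), and with Et2HOBA it was 17.1-fold lower (10.6 to 29.2). Between the treated libraries it was 4.06-fold lower with Et2HOBA (2.39 to 7.26), a wide interval that, with its 18 reads, includes the 2.52-fold of Mxd4. In the authors' deposited tables Mxd3 had -1.06 for glucose oxidase alone and -2.39 for both agents. Those values are smaller in size than the common log2 ratios of -1.93 and -3.48, since the deposited scales shrink low counts. The 2 scales differ: at high counts they act like pseudocounts of 202 and 71.1, so the 2 deposited values are not directly comparable. On the scale behind the third deposited table, recomputed for Mxd3, the ratio of the treated libraries was -0.24 in place of -1.56, smaller in size than that of Mxd4 at -1.03. Mxd3 overlaps Prelid1 on the opposite strand by 105 bases; Prelid1 had 7056, 5953 and 6932 reads, the library kit keeps strand, and whether the counting used it is not given in the sources used here. Likewise Mxd4 overlaps the antisense gene Gm42846 by 1001 bases and Mlx overlaps Psmc3ip, with 232, 174 and 147 reads, by 385 bases. Mxi1 overlaps AC133451.2 by 5146 bases and Gm10197 by 201 on the opposite strand, and Max and Mxd1 overlap Gm47218 and Gm44292 by 1319 and 2364 bases on their own strand.

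Mxi1 (ENSMUSG00000025025.14, chromosome 19, 53310518 to 53375810) is also a repressive MAX partner, but it ran opposite to Mxd3 and Mxd4. It had 468, 661 and 1380 reads, or normalized counts of 453 (413 to 497), 685 (634 to 739) and 1329 (1259.5 to 1401). The library with both agents stood highest and control lowest, with no overlap. The level was 1.51-fold that of control after glucose oxidase (1.34 to 1.70) and 2.93-fold with Et2HOBA (2.64 to 3.26). Between the treated libraries it was 1.94-fold higher with Et2HOBA (1.77 to 2.13), where 6.81% of all listed genes, and 1.09% of protein-coding genes, had as high a log2 ratio.

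Mxd1 (ENSMUSG00000001156.9, chromosome 6, 86647042 to 86669161), the founding MXD gene, had normalized counts of 602 (555 to 651), 492 (449 to 538) and 385 (348 to 425). It too was lower in each treated library, at 0.818 of control after glucose oxidase (0.724 to 0.923) and 0.640 with Et2HOBA (0.563 to 0.727). Of the 4 genes of the MXD family, 3 were thus lower than control in both treated libraries and Mxi1 was higher, under each scaling tried.

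Mnt (ENSMUSG00000000282.12, chromosome 11, 74830920 to 74845725), whose product is the repressive MAX partner found in most cell types, had 1481, 2006 and 2907 reads. The normalized counts were 1435 (1363 to 1510.1), 2078 (1988 to 2171) and 2799 (2698 to 2903), each interval clear of the others. The level was 1.45-fold that of control after glucose oxidase (1.35 to 1.55) and 1.95-fold with Et2HOBA (1.83 to 2.08). These folds lie close to those of Myc, 1.50 and 1.94, and the intervals of the genes overlap in both.

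Mga (ENSMUSG00000033943.15, chromosome 2, 119897228 to 119969581), a large protein that brings MAX into a Polycomb-type repressive complex, had normalized counts of 2569 (2472 to 2669), 2485 (2387 to 2587) and 2778 (2677 to 2881). The level after glucose oxidase was 0.967 of control, and its interval, 0.915 to 1.02, included equal levels. With Et2HOBA it was 1.08-fold (1.03 to 1.14). Mlx (ENSMUSG00000017801.15, chromosome 11, 101087277 to 101092207) had normalized counts of 1454 (1381 to 1529), 1427 (1353 to 1505) and 1574 (1499 to 1652). Its level was 0.982 of control after glucose oxidase (0.912 to 1.06) and 1.08-fold with Et2HOBA (1.01 to 1.16). With total-count scaling the log2 ratios of both genes with Et2HOBA were -0.04, where the median of all listed genes was -0.13. Relative to that median both stayed above, by little, and the sign of the ratio itself depended on the scaling.

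**Figure D2:**
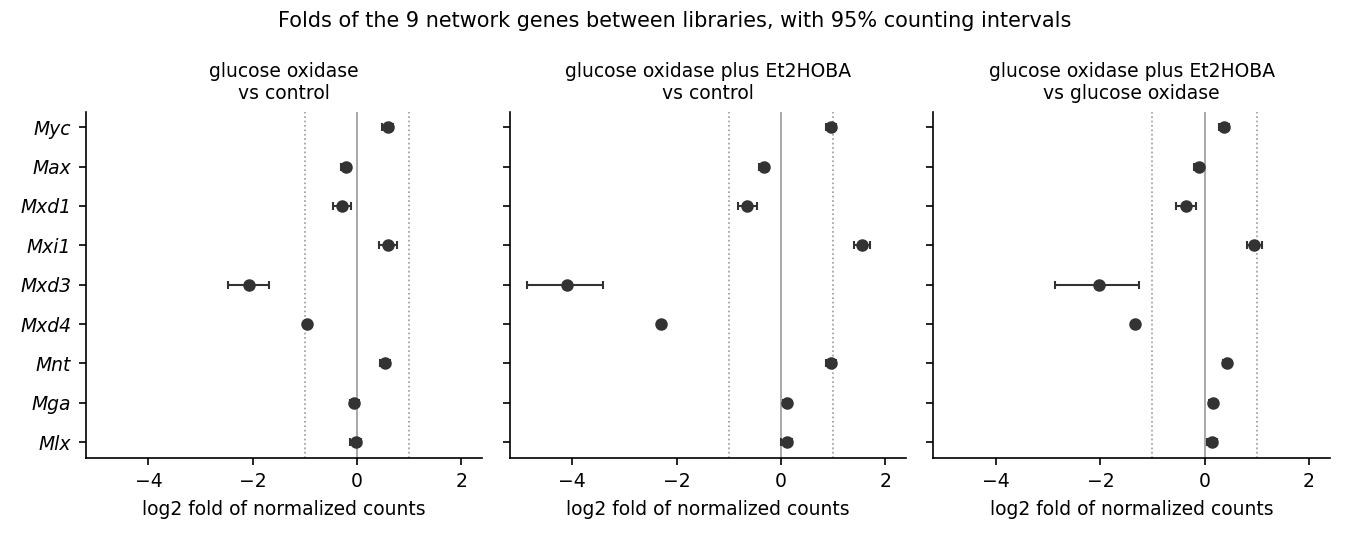
Log2 fold of normalized counts for the 9 genes in the 3 comparisons of libraries, without a pseudocount; points are folds, bars are exact 95% counting intervals and dotted lines mark 1 log2 unit. Mxd3 and Mxd4 lie left of the lower line in both comparisons that involve Et2HOBA, and only Mxi1 lies right of the upper line, against control.

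After glucose oxidase 1 of the 9 genes, Mxd3, differed from control by at least 1 log2 unit, and it was lower, beside 12.7% of all listed genes, made up of 4.07% higher and 8.60% lower. With both agents 3 of 9 did, Mxd3 and Mxd4 lower and Mxi1 higher, beside 14.7% of all listed genes; 8.04% were lower and 6.66% higher. Between the treated libraries 2 of 9, Mxd3 and Mxd4, were lower with Et2HOBA, beside 8.55% of all listed genes past the limit, made up of 6.39% higher and 2.15% lower. All 9 members are protein-coding, and over protein-coding genes the balance between the treated libraries was the other way, with 129 higher and 312 lower. Of 13285 protein-coding genes, 602 were higher and 633 lower than control after glucose oxidase, and 974 and 1236 with both agents. The median log2 ratios of the 9 genes were -0.05, 0.11 and 0.14, and those of all listed genes were -0.01, 0.00 and 0. In 7 of the 9 genes the glucose oxidase library lay between the control library and the library with both agents. The same held for 64.1% of protein-coding genes and 55.1% of all listed genes.

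Levels of different genes can be compared only per transcript length, so reads were divided by exon length and rescaled to a fixed total per library (TPM). In the control library Mxd4 was highest at 135 TPM, followed by Mlx (71.4), Max (70.0), Myc (43.1), Mnt (30.4), Mga (16.4), Mxd3 (12.2), Mxd1 (8.35) and Mxi1 (6.53). Only the intervals of the neighbours Mlx and Max overlapped. After glucose oxidase Mlx, at 68.3 TPM, and Mxd4, at 67.9, could not be placed in order, nor could Myc, at 63.0, and Max, at 58.8. With Et2HOBA, Myc came first at 75.2 TPM, and its interval overlapped that of Mlx at 69.5. Mnt and Max followed at 53.4 and 50.2, again overlapping, and Mxd4 came next at 24.9. Mxi1, last in control, stood at 17.2 with an interval overlapping that of Mga. Mxd3, at 0.645 TPM, was last. The order of genes also depends on the length assumed. With the longest coding transcript in place of all exons, Mxd3 lay above Mga in control and Mxd4 slightly above Mnt with Et2HOBA. By that length Max, not Myc, came first with Et2HOBA, with overlapping intervals. After glucose oxidase Mxd4 then lay clearly above Mlx, and Max above Myc.

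The transcript make-up of the 7 partners that share MAX therefore differed between libraries. Mxd4 made up 53.6%, 32.5% and 12.9% of their summed TPM, in the order of libraries used above. The share of Myc was 17.1%, 30.2% and 39.2% in the same libraries, that of Mnt 12.1%, 20.6% and 27.8%, and that of Mxi1 2.58%, 4.61% and 8.95%. For each TPM of Myc there were 4.86, 2.31 and 1.55 TPM of the 6 repressive partners together. Their sum was 209, 145 and 117 TPM. Within the 4 MXD family genes Mxd4 held 83.3%, 78.0% and 52.3%, and Mxi1 4.01%, 11.0% and 36.2%. These shares depend on the transcript length assumed. With the longest coding transcript of each gene as its length, Mxd4 made up 67.6%, 47.9% and 22.2%, Myc 11.4%, 23.6% and 35.7%, and the repressive sum was 7.77, 3.24 and 1.80 times Myc. Transcript shares say nothing of the amounts of protein.

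**Figure D3:**
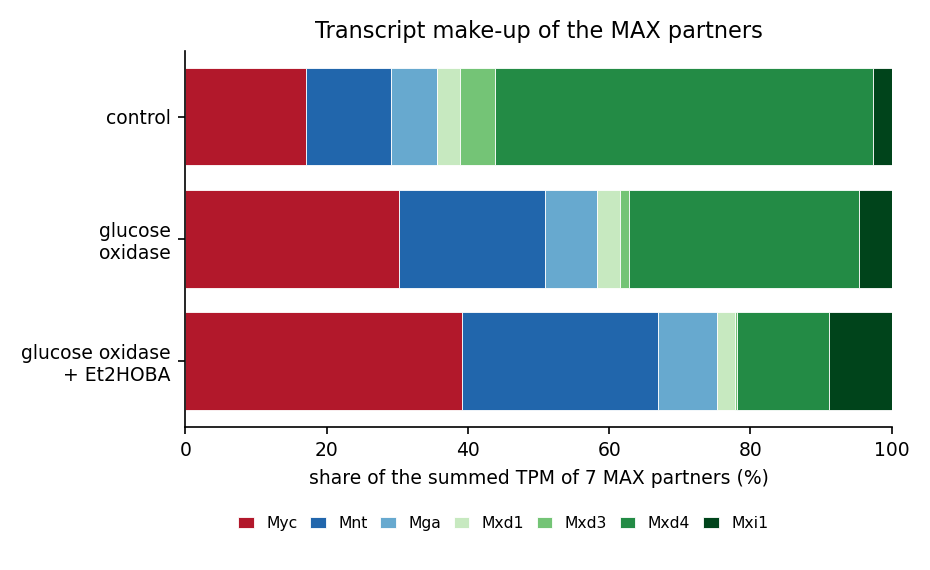
Share of each gene in the summed TPM of the 7 MAX partners (x axis, percent), 1 bar per library. The Mxd4 segment narrows from 53.6% in control to 12.9% with both agents, while the segments of Myc, Mnt and Mxi1 widen.

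Genes whose pair of log2 ratios against control lay closest to that of a member were sought among the 10596 other protein-coding genes with a mean normalized count of at least 100; 3 libraries give only 2 such ratios. Nearest to Myc were Zyg11b, Tedc2 and Ankrd11, and 98 of the 10596 genes lay within a distance of 0.1. Nearest to Mxd4 were Gm32742, Adra2a and Ifit3, with 4 genes within that distance. Nearest to Mxi1 were Myo10, Kdm7a and Pgf, and to Mxd3 Mctp2, Sult1a1 and Slc2a6, with 2 and 5 genes within 0.1. Slc2a6, for example, had 289, 63 and 18 reads, almost the counts of Mxd3.

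Of 14 other E-box factors and relatives, 12 were listed; Mycl and Mlxipl were not. Their median log2 ratios were -0.05 and 0.05 against control and 0.09 between the treated libraries. Against control 6 were above 0 and 6 below after glucose oxidase, and 7 above and 5 below with Et2HOBA. Mycn, a paralog of Myc with far fewer reads, ran opposite to it, with 103, 36 and 16 reads, at 0.154 of control (0.0851 to 0.263) in the last. Mitf, an E-box factor of the TFE family, was the member of this list with the largest difference upward, with 106, 242 and 334 reads. Hif1a had a log2 ratio of 0.70 with Et2HOBA against control, Tfeb of -0.62 and Tfe3 of 0.36.

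Genes for the proteins through which MYC and the MXD factors act were described next. None of 15 MYC cofactors passed 1 log2 unit in any comparison, beside 12.7%, 14.7% and 8.55% of all listed genes. The cofactor medians were 0.03, 0.15 and 0.16, beside -0.01, -0.0002 and 0 for all listed genes. Among the cofactors the largest difference was in Ruvbl2, an ATPase of chromatin remodelling complexes, with 1821, 2478 and 3091 reads. Among 15 SIN3 and NCOR corepressor genes the medians were 0.04, 0.06 and 0.03, and among 13 genes of the MGA complex 0.13, 0.22 and 0.05, with 10, 9 and 9 genes above 0. In both lists only Hdac1, a histone deacetylase shared by them, passed the limit, with 2107, 1404 and 1003 reads and a log2 ratio of -1.07 with Et2HOBA against control. Hdac1 shares 58.7% of its 50-base stretches with another annotated gene, so its count depends on how shared reads were assigned. Pcgf6, the subunit that defines the MGA complex, had 633, 1138 and 1267 reads.

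Of 16 genes acting on MYC protein stability, 2 were lower than control by at least 1 log2 unit after glucose oxidase and 3 with Et2HOBA, and none was higher. Among all listed genes 8.60% and 8.04% were lower by as much in these comparisons, and 4.07% and 6.66% were higher. Aurka, a mitotic kinase that stabilises MYC family proteins, had 1032, 261 and 163 reads. Cip2a, an inhibitor of the phosphatase that acts on MYC, had 957, 279 and 222. Skp2, a ubiquitin ligase subunit, had 593, 339 and 283. The medians of this list were -0.10, -0.09 and 0.04. Aurka and Skp2 are also cell-cycle genes, and the S phase and mitosis genes were lower in the same libraries. Of 16 such genes 14 were lower by at least 1 log2 unit with Et2HOBA, and the list medians were -1.64, -2.60 and -0.82. Kif11, a mitotic motor, had 1838, 331 and 145 reads. Against control, the log2 ratios of Mxd3, -1.93 and -3.48, lay within the range of this list, whose lowest were those of Kif11 at -2.34 and -3.58. With both agents this placement rests on the pseudocount. By fold Mxd3 was at 0.0586 of control (0.0343 to 0.0943), below Kif11 at 0.0784 (0.0657 to 0.0929), with overlapping intervals. Between the treated libraries the log2 ratio of Mxd3, -1.56, was below those of the whole list, whose lowest was Plk1 at -1.38. The intervals of their folds overlapped, 0.246 (0.138 to 0.419) for Mxd3 and 0.364 (0.289 to 0.455) for Plk1. The part of cell division in the values of Mxd3 was not tested.

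Known targets were then examined, from lists drawn up by general knowledge but with earlier results of these data known. Their counts and medians are therefore a description. Of 25 MYC-activated genes of ribosome biogenesis, 22 had a log2 ratio above 0 after glucose oxidase and 21 with Et2HOBA, but none passed 1 log2 unit. The medians were 0.26 and 0.35, beside -0.01 and 0.00 for all listed genes, and 0.10 between the treated libraries. Rrp9, a factor of ribosomal RNA processing, had 806, 1243 and 1630 reads and was 2.01-fold higher with Et2HOBA than in control (1.85 to 2.19). Npm1, a nucleolar chaperone, had 20852, 27420 and 31663 reads, and 40.9% of its stretches are shared with another gene. With total-count scaling the medians against control were 0.20 and 0.20, and the one between the treated libraries was 0.00, where the medians of all listed genes moved to -0.06, -0.13 and -0.08.

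The 28 MYC-activated genes of metabolism and growth had medians of 0.20, 0.20 and 0.07 (the last -0.02 with total-count scaling). With Et2HOBA 5 were higher and 1 lower than control by at least 1 log2 unit, beside 6.66% higher and 8.04% lower of all listed genes. Shmt2, a mitochondrial serine hydroxymethyltransferase, had 2849, 8570 and 11275 reads. Hk2, the glycolytic enzyme hexokinase 2, had 832, 1627 and 3012. Tfrc, the transferrin receptor, had 1801, 3376 and 4705. Odc1, the first enzyme of polyamine synthesis and a classic MYC target, had 3676, 5388 and 11796 reads. It was 2.03-fold higher with Et2HOBA than with glucose oxidase alone (1.97 to 2.10), but 42.2% of its stretches are shared with another gene. Shmt1, the cytosolic counterpart of Shmt2, was lower, with 464, 251 and 221 reads. Of the 24 genes of this list with a promoter window, 9 held CACGTG, against 4 of 20 for the ribosome biogenesis genes. The share over all listed genes with a window was 11.3%.

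Of 9 listed genes that MYC is known to repress, 3 were higher than control by at least 1 log2 unit in both treated libraries, while 2 were lower after glucose oxidase and 1 with both agents. Among all listed genes 4.07% were higher and 8.60% lower by as much after glucose oxidase, and 6.66% and 8.04% with both agents. Gadd45a, a stress-induced growth arrest gene, had 667, 3761 and 7345 reads. Ndrg1, which takes its name from its repression by N-MYC, had 1993, 5631 and 12146. Cdkn2b, an inhibitor of cyclin-dependent kinases, had 357, 987 and 1738. Cdkn1c, of the same function, was lower, with 168, 52 and 59, and Cdkn1a had 17707, 21162 and 26493. All 9 had a log2 ratio above 0 between the treated libraries, with a median of 0.22, or 0.12 with total-count scaling. The lowest of these ratios were 0.04, 0.06 and 0.07. Total-count scaling moved the median of all listed genes to -0.08 in this comparison, and ratios this small fall below 0 with it. The list medians against control were 0.21 and 0.28, but 0.0096 and 0.07 over the 8 genes with no shared 50-base stretch, which leaves out Ndrg1 for 0.150% of shared stretches. Ndrg2 was not listed.

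**Figure D4:**
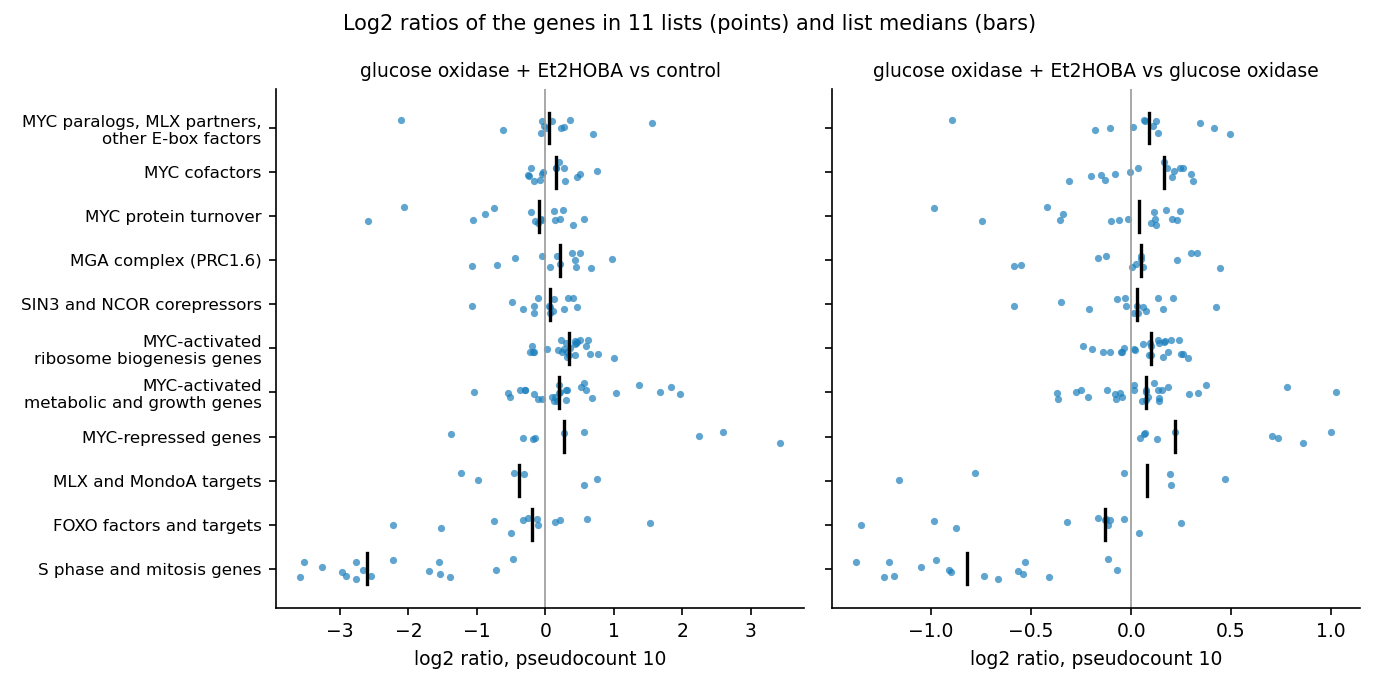
Log2 ratios of the genes of 11 lists (x axis), for both agents against control on the left and against glucose oxidase alone on the right; points are listed genes and black bars are list medians. The S phase and mitosis genes lie to the left in both panels, and the ribosome biogenesis genes lie mostly between 0 and 1 on the left.

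The 6 listed targets of MLX and MondoA had medians of -0.12, -0.38 and 0.08, the last turned to -0.01 by total-count scaling. Txnip, a classic target of MondoA-MLX and an inhibitor of glucose uptake, had 11691, 12408 and 5965 reads. Only the library with Et2HOBA was low: the level there was 0.447 of that with glucose oxidase alone (0.433 to 0.461) and 0.507 of control (0.491 to 0.523). Its paralog Arrdc4 had 2142, 1464 and 914 reads, at 0.580 of the level with glucose oxidase alone (0.534 to 0.631). Tbc1d2 and Klf10 had higher counts with Et2HOBA than in control, with log2 ratios of 0.75 and 0.56, and Fasn had a ratio of -0.46. Mlx itself differed by at most 0.14 log2 units in these comparisons.

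Mxi1 and Mxd4 have been described as targets of FOXO factors, and 12 of 13 genes of a FOXO list were listed, with medians of -0.04, -0.19 and -0.13. Sesn1, a stress-responsive regulator of growth signalling, had 2328, 1190 and 495 reads, and Sesn3 had 2301, 1367 and 798. Fbxo32 had 168, 186 and 96. These 3 genes were lowest with Et2HOBA, as Mxd4 was, but Fbxo32, unlike Mxd4, was not lower after glucose oxidase (1.18-fold, 0.956 to 1.47). Cited2, with 1591, 2485 and 2447 reads, was higher than control in both treated libraries, as Mxi1 was. Between the treated libraries Cited2 was at 0.915 (0.865 to 0.968), whereas Mxi1 was 1.94-fold higher with Et2HOBA. In that comparison 10 of the 12 genes were below 0 and 2 above, where the median of all listed genes was 0. Irs2 had 5, 25 and 34 reads.

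The endothelial label was checked against markers. All 10 endothelial markers were listed, with a summed level of 8544, 5316 and 4236 TPM, although Emcn was higher in the treated libraries (94.5, 116 and 125 TPM) and Cdh5 was not lower with both agents (1253, 1062 and 1287 TPM). The summed levels of 3 listed smooth muscle and 3 listed pericyte markers were at most 1.72 and 1.76 TPM. Macrophage markers, 3 of 5 listed, summed to 635, 1352 and 1884 TPM, nearly all of it Cd68, a lysosomal protein also made by other cells; Ptprc and Adgre1, which define macrophages and other leukocytes, were not listed, Csf1r had 6, 12 and 10 reads, and Lyz2 ran the other way with 186, 76 and 86. Fibroblast markers, 2 of 5 listed, summed to 1.42, 13.6 and 24.2 TPM, nearly all Pdgfra, while Col1a1 had 28, 30 and 23 reads and Dcn, Lum and Dpt were not listed. Mesothelial markers, 2 of 4 listed, summed to 33.3, 82.7 and 111 TPM, nearly all Msln, while Krt19 had 55, 38 and 67 reads and Upk3b and Wt1 were not listed. The endothelial sum stood in the same order of libraries as Mxd4, and the fibroblast, macrophage and mesothelial sums in the same order as Myc, Mxi1 and Mnt; their part in these results was not tested.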

How the data were processed

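Polyadenylated RNA was sequenced from 3 libraries, 1 per group. STAR, featureCounts and mm10 are named in the submitters' processing notes, without versions; whether counting used strand is not given in the sources used here. The authors deposited raw read counts for control and for glucose oxidase plus Et2HOBA, with log2 values and log2 differences of these, per the file headers. Glucose oxidase against control was deposited as log2 differences alone, and the treated libraries against each other as 7 log2 differences.

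No label or header describes the log2 transformation; from the values, the log2 differences follow differences of inverse hyperbolic sines of the square root of the scaled count. Inverting them gave glucose oxidase reads that were whole, to a tolerance of 0.01, in 100% of 18275 genes; with 1 read added to each control count 3.31% were whole. A further 12 genes with doubled names were placed by whole reads. Of the gene IDs, 17878 had the same version and position in GENCODE M21 (GRCm38). The recovery and ratio steps were also tested on simulated data.

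Size factors by median of ratios (1.03, 0.965 and 1.04) scaled the reads, and log2 ratios used a pseudocount of 10. Intervals are exact Poisson (levels) and Clopper-Pearson (folds) at 95%, from Python 3.11.15 with scipy 1.17.1. TPM used union exon lengths of GENCODE M21. TMM factors came from edgeR 4.0.16. No test was run, since there was 1 library per group.

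The members, the 11 gene lists and the 6 marker lists were chosen with earlier results of these data known. All members were named; of each list up to 5 genes were named, those with the largest difference from control with Et2HOBA at a mean normalized count of at least 10, and for Myc, Mxd4, Mxi1 and Mxd3 the 3 nearest genes by pattern. Promoter windows are RefSeq's, on GRCm38.p6; Myc had none in that table.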

Additional observations from a re-analysis of the deposited data

How the results depend on the processing

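The 27 log2 ratios of single members (9 genes in 3 comparisons) kept their sign with a pseudocount of 1, with none, with TMM factors and on the deposited scale. With total-count scaling, which shifts the median of all genes to -0.06, -0.13 and -0.08, Mga and Mlx changed sign against control with Et2HOBA and the other 25 ratios kept it. Total-count scaling put 2 members, Mxd3 and Mxd4, lower by 1 log2 unit after glucose oxidase (Mxd4 at -1.02). Over members with no shared 50-base stretch none was higher with Et2HOBA, 0 in place of 1, since 0.180% of the stretches of Mxi1 are shared. On the scale of the deposited values 1 member, Mxd4, was lower between the treated libraries.

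The number of all genes past the limit moved more. Restricted counts come from smaller sets, 13285 protein-coding genes and 10533 genes with no shared stretch, out of 18287 listed. A lower count there is therefore not a lower share. After glucose oxidase against control it was 1451 higher and 2792 lower with a pseudocount of 1, 633 lower over protein-coding genes, 444 lower over genes with no shared stretch, and 276 higher and 458 lower on the deposited scale. With both agents against control it was 1897 and 2597 with a pseudocount of 1, 781 and 963 with no shared stretch, and 946 lower on the deposited scale. Between the treated libraries it was 1993 and 1318 with a pseudocount of 1, 129 higher over protein-coding genes, 89 and 250 with no shared stretch, and 36 and 7 on the deposited scale. The cause was not tested. The restrictions to no shared stretch and to the deposited scale for these counts, and the transcript length for the shares, were added after the data were seen. Of 33 list medians 11 changed sign with total-count scaling and 2 with no shared stretch. No paired analysis was possible because each group has 1 library. Depth limits Mxd3 most, with 18 reads in 1 library.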
